A study of Mus musculus with 6 samples.

Results

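Cohesin is a ring-shaped protein complex that holds the sister copies of a chromosome together from their replication until they separate in mitosis, and that folds chromatin into loops in cells that are not dividing. Its core ring consists of the paired ATPases Smc1a and Smc3, the closing subunit Rad21 and a Stag subunit, is placed on DNA by the loader Nipbl, and is taken off again by Wapl. Cohesion itself is set up during S phase, when the acetyltransferase Esco2 modifies Smc3 at the replication fork and sororin, the product of Cdca5, then shields the ring from Wapl. The 10 genes described here were chosen by name: Smc1a, Smc3, Rad21, Stag2, Nipbl, Wapl, Pds5b, Esco1, Esco2 and Cdca5. They were chosen with earlier results of these data known. All 10 were found among the 45527 named genes of the count table, and all 10 were among the 16252 genes with enough counts to be tested.

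RNA was sequenced from satellite cells, the stem cells of skeletal muscle, which were sorted by a yellow fluorescent reporter 24 h after an injection of 30 µl of cardiotoxin into the muscles of the lower hindlimb. The 3 control libraries had the genotype Pax7creER:Paxbp1flox/+:R26R-YFP and the 3 libraries labelled Paxbp1-iKO had Pax7creER:Paxbp1flox/flox:R26R-YFP. Both groups therefore carried the Cre driven from Pax7, the reporter and the injury, and the controls also had 1 floxed Paxbp1 allele. Mouse ages are not given in the sources used. The series' design speaks of 3 pairs of control and iKO mice, but no label says which mouse or pair a library came from. The p-values therefore cover the spread from library to library.

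Total counts per library were 23327359 to 28050748. Paxbp1, the gene to be deleted, was higher in the libraries labelled iKO, at 68.6 ± 6.81 CPM in the control libraries and 110.2 ± 15.4 CPM in those libraries (log2 fold change 0.68 ± 0.13, adjusted p = 0.00954), which goes against the label. The deposited counts are given by gene and not by exon, and Paxbp1 shares exon bases with 4930404I05Rik on the other strand. The Paxbp1 value therefore does not show whether the floxed part was lost. The groups are called by their labels below, and each direction is drawn from those labels. All 9 satellite cell markers were counted in every library. They summed to 9604 to 10117 CPM in the controls and 12096 to 12677 CPM in the iKO-labelled libraries. Pax7, Vcam1, Cdh15, Sdc4 and Chodl, 5 in all, were called higher and Myf5, Itga7 and Des, 3 in all, lower. Myod1 was lower without overlap but missed the threshold (-0.27 ± 0.080, adjusted p = 0.0511), and it was called under 5 of 17 alternatives. The call of Vcam1 ended under 4 of 17. Of all tested genes 8.15% were called higher and 12.3% lower. Sdc4 had the highest mean in each group (3911 and 6087 CPM), so that the sums are weighted towards it. Pax7 and Chodl rose 4.36 and 5.70 times, and Vcam1, Cdh15 and Sdc4 rose 1.35, 1.48 and 1.56 times. Myf5, Itga7 and Des fell 1.54, 1.60 and 1.30 times. Markers of other cell types were low but present. Leukocyte markers summed to 126 to 193 CPM in the controls and 108 to 208 CPM in the iKO-labelled libraries, and fibro-adipogenic markers to 308 to 483 and 313 to 427 CPM. Endothelial markers summed to 51.3 to 226 and 91.8 to 100.1 CPM, muscle fibre markers to 16.4 to 64.3 and 12.5 to 17.5 CPM, and Schwann cell and pericyte markers to 30.3 to 138 and 50.8 to 96.5 CPM. Control 1 had the highest sum in 4 of these 5 lists, all but the leukocyte markers. No marker was at 0 in all 6 libraries. Against 20.4% of all tested genes, 1 of the 32 tested markers in these 5 lists was called. This was Acta1, the actin of muscle fibres (-1.84 ± 0.51, adjusted p = 0.0379). It was no longer called when control 1 or 2 or any of the iKO-labelled libraries was left out (adjusted p up to 0.135). The part of these cells in the cohesin values was not tested.

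CPM are counts scaled to the TMM-adjusted size of each library. FPKM, the authors' deposited values, also account for gene length and serve to compare genes with each other. The lengths behind them were not checked, and levels or shares compared between genes depend on them. Means are given ± SD (n = 3 per group) and log2 fold changes, iKO-labelled against control, ± SE. A gene was called at an adjusted p under 0.05, from the quasi-likelihood test of edgeR with Benjamini-Hochberg adjustment over the 16252 genes.

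The S-phase factors Esco2 and Cdca5 fell steeply, by 51.8 and 30.0 times, while no gene of the core ring fell by more than 1.63 times. In all, 5 of the 10 cohesin genes were lower in the iKO-labelled libraries and 0 were higher, where 20.4% of all tested genes were called, 12.3% lower and 8.15% higher. The genes that fell were Esco2, Cdca5, Smc1a, Smc3 and Pds5b. Rad21, Stag2, Nipbl, Wapl and Esco1 were not called. The median log2 fold change was -0.32 over the 10 genes and -0.15 over the 8 other than Esco2 and Cdca5, against 0.02 over all tested genes. The groups did not overlap in CPM for 5 of the 10 genes, against 39.8% of all tested genes.

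The stretch just upstream of the start site is shown for the 5 members with a promoter window in the RefSeq table (GRCm38.p6), because Cdca5, which fell 30.0 times, can there be set beside Smc1a, Smc3 and Pds5b, which fell by less, and Wapl, which was not called. Each line gives the 30 bases from 33 to 4 bases before the RefSeq start on the plus strand, with capitals marking a match to TTTGAA, the letters of the cell cycle homology region (CHR) found at many genes of mitosis, or to the CCAAT box (ATTGG on the other strand).
Cdca5, chr19:6085064-6085093: ctagcaaggcgggcaaTTTGAAcgTTTGAA
Pds5b, chr5:150673794-150673823: tTTTGAAgcggagaggcggaggaacggcct
Smc1a, chrX:152016395-152016424: aacaggaaatcgtgATTGGcttggacttat
Smc3, chr19:53600363-53600392: gcccgacgcgcgggccccgcctccgcggcc
Wapl, chr14:34673895-34673924: cctgtgggaagcggagtgacggagcgagcg

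Cdca5 held TTTGAA at 17 and again at 9 bases before its start, and Pds5b held it at 32 bases before. The stretch shown opens just before the Pds5b match and ends on the last base of the second Cdca5 match, so its edges follow these matches. Esco2, the member that fell most, had no window. Over the 250 bases upstream, searched on both strands, TTTGAA was present in 16.0% of all 32851 windows, and of the 5 members only Cdca5 and Pds5b held it. The variant TTTAAA, present in 12.1% of windows, was in none of the 5. The CCAAT box, present in 33.8% of windows, lay upstream of Smc1a, Wapl and Pds5b, but inside the stretch shown only for Smc1a. The E2F letters TTTCCCGC, TTTCGCGC, TTTGCCGC and TTTGGCGC, of which at least 1 was present in 1.86% of windows, were in none of the 5. GENCODE places the starts of Cdca5 and Pds5b further upstream, so that the letters shown for these genes lie downstream of its starts. The same search covered further cohesin genes described below. TTTGAA was upstream of Espl1, which fell, of Hdac8 and Ctcf, which were not called, and of Rad21l, too low to test. It was absent upstream of the others with a window. Among these were Bub1, Sgo1, Sgo2a, Chtf18 and Timeless, which fell, and Stag1 and Pds5a, which were not called. The E2F letters were upstream of Stag1 and Pds5a only. A match is a description of letters and not of a bound site, and a link to the falls was not tested.

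Esco2 encodes the Smc3 acetyltransferase that works in S phase (chromosome 14, 65819038 to 65833994, minus strand, GRCm38). Controls 1 to 3 held 296, 691 and 476 of its reads, and iKO-labelled libraries 1 to 3 held 21, 8 and 2. Scaled to library size these were 13.2, 26.7 and 18.2 CPM against 0.736, 0.273 and 0.0811 CPM. Every iKO-labelled library lay far below every control, with a log2 fold change of -5.70 ± 0.64 (95% interval -7.16 to -4.23, adjusted p = 8.4e-04). The size of this fall rests on few counts: without iKO-labelled library 1 it was 103.6 times, and on log2(FPKM + 1), which compresses low values, its log2 value was -2.36. In RNA from many cells, fewer cells with the transcript and less of it per cell cannot be told apart.

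Cdca5 encodes sororin, which keeps acetylated cohesin on the sister chromatids until mitosis (chromosome 19, 6084983 to 6091777, plus strand). It had 270, 622 and 750 counts in controls 1 to 3 and 3, 25 and 30 counts in iKO-labelled libraries 1 to 3. These were 12.1, 24.0 and 28.7 CPM in the control libraries and 0.105, 0.852 and 1.22 CPM in those labelled iKO. The groups were again far apart, with a log2 fold change of -4.91 ± 0.70 (95% interval -6.51 to -3.30, adjusted p = 0.00247). The size of this fall also rests on few counts. It was 21.0 to 44.5 times with 1 library left out, and on log2(FPKM + 1) its log2 value was -2.98. Among the iKO-labelled libraries the order was the reverse of that for Esco2: library 1 had the highest count of Esco2 and the lowest of Cdca5, and library 3 the lowest of Esco2 and the highest of Cdca5. Among the controls, library 1, which had the highest sums of 4 lists of other cells' markers, was lowest for both. A link between these observations was not tested.

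Esco1 encodes the other Smc3 acetyltransferase, which acts throughout the cell cycle (chromosome 18, 10566507 to 10610352, minus strand). It was at 59.4, 45.7 and 56.1 CPM in controls 1 to 3 and at 55.8, 72.8 and 61.3 CPM in the iKO-labelled libraries, so that the groups overlapped. Its log2 fold change of 0.24 ± 0.15 was not called (adjusted p = 0.335), with a 95% interval from -0.11 to 0.58. Per length, Esco2 made up 20.3%, 40.0% and 27.1% of the summed FPKM of the acetyltransferase pair in controls 1 to 3. In iKO-labelled libraries 1 to 3 its share was 1.48%, 0.425% and 0.151%. The ratio within a library does not depend on library scaling, and the log2 ratio of Esco2 to Esco1 went from -1.33 ± 0.70 to -7.77 ± 1.66, a difference of -6.43.

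**Figure D1:**
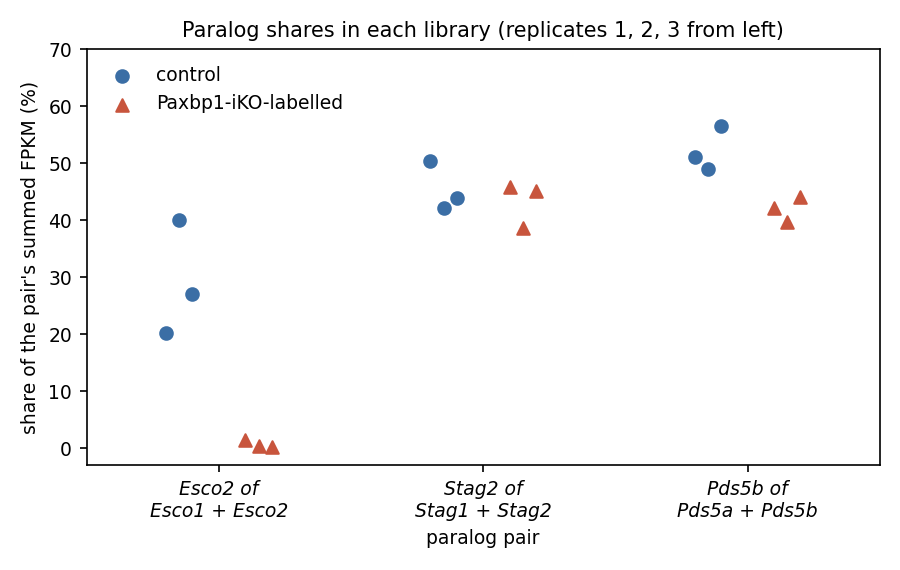
Share of 1 paralog in the summed FPKM of its pair (vertical axis, percent) for Esco2, Stag2 and Pds5b, with 1 point per library, circles for controls and triangles for iKO-labelled libraries. Esco2 lies at 20.3% to 40.0% in the controls and at 0.151% to 1.48% in the iKO-labelled libraries, Stag2 overlaps between groups, and Pds5b is at 49.0% to 56.6% against 39.8% to 44.1%.

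Set against the core ring, the log2 ratio of Esco2 to Smc3 in FPKM was -2.78 ± 0.38 in the control libraries and -8.51 ± 1.57 in the iKO-labelled libraries. For Cdca5 to Smc3 it was -1.75 ± 0.52 and -6.68 ± 2.02. In each of the 3 ratios all iKO-labelled libraries lay below all controls. The exact two-sided permutation test gave p = 0.1 for each, also after adjustment over the 3 ratios, which is the smallest p that 3 libraries against 3 allow. Cdca5 and Esco2 fell relative to Smc3, which is only part of the ring they act on, by more than the spread between libraries. Their own falls were so large that the separation in these ratios was settled beforehand, so the exact test adds no support. It cannot reach 0.05 in this design.

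Smc1a, 1 of the paired ATPases of the ring (chromosome X, 152016428 to 152062694, plus strand), was at 245, 256 and 253 CPM in controls 1 to 3. In iKO-labelled libraries 1 to 3 it was at 124, 162 and 177 CPM. The controls lay close together and above every iKO-labelled library, a fall of 1.63 times (-0.70 ± 0.13, adjusted p = 0.00696). Its partner Smc3 (chromosome 19, 53600398 to 53645833, plus strand) was at 157, 190 and 187 CPM in the control libraries and at 141, 110.2 and 133 CPM in those labelled iKO. The groups did not overlap, but the lowest control and the highest iKO-labelled library were near each other. Smc3 fell by 1.39 times (-0.47 ± 0.12, adjusted p = 0.028). That call ended without control 2 or 3 or iKO-labelled library 2 or 3 (adjusted p up to 0.0961) and with library totals in place of TMM (adjusted p = 0.083).

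Rad21, the kleisin that closes the ring and is cut by separase in mitosis (chromosome 15, 51962240 to 51991747, minus strand), was at 59.2, 69.0 and 58.0 CPM in the controls. It was at 61.6, 46.2 and 61.0 CPM in the iKO-labelled libraries, of which only library 2 lay below the controls. Its log2 fold change of -0.14 ± 0.15 (95% interval -0.48 to 0.20, adjusted p = 0.573) was not called. Stag2, a Stag subunit of the ring (chromosome X, 42149317 to 42277185, plus strand), was at 77.9, 69.2 and 75.2 CPM in the control libraries and 77.4, 57.2 and 63.3 CPM in those labelled iKO. These overlapped as well, with a log2 fold change of -0.17 ± 0.14 (95% interval -0.48 to 0.15, adjusted p = 0.454). Stag2 shares exon bases with Gm37564 on the other strand, whose reads cannot be told apart in this protocol. The intervals of Rad21 and Stag2 leave room for falls as large as that of Smc3.

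The alternative Stag subunit, Stag1, was at 127 ± 15.3 CPM in the control libraries and 123 ± 11.4 CPM in those labelled iKO (adjusted p = 0.836). Stag2 made up 50.3%, 42.2% and 43.8% of the summed FPKM of Stag1 and Stag2 in controls 1 to 3 and 45.9%, 38.6% and 45.1% in the iKO-labelled libraries. The shares overlapped between the groups. Per length Smc1a exceeded Smc3 in each control, with FPKM ratios of 1.5, 1.3 and 1.3. In the iKO-labelled libraries the ratios were 0.848, 1.41 and 1.28, so that library 1 stood apart with less Smc1a than Smc3.

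Nipbl, which loads cohesin on DNA and drives loop extrusion (chromosome 15, 8290617 to 8444463, minus strand), was at 182, 156 and 138 CPM in the control libraries and at 193, 152 and 166 CPM in those labelled iKO. The groups overlapped and the gene was not called (0.10 ± 0.13, 95% interval -0.20 to 0.40, adjusted p = 0.649). Its partner in the loader, Mau2, was at 61.9, 73.0 and 75.1 CPM in the control libraries and 79.0, 102 and 86.8 CPM in those labelled iKO. All iKO-labelled libraries were above all controls, but the log2 fold change of 0.35 ± 0.13 missed the threshold (adjusted p = 0.105). It passed with library totals (adjusted p = 0.039) and with the filter of at least 5 CPM in 3 libraries (adjusted p = 0.0342). Per length, Nipbl stood at 0.731, 0.516 and 0.464 times Smc3 in controls 1 to 3 and at 0.859, 0.868 and 0.785 times Smc3 in the iKO-labelled libraries. That ratio did not overlap between the groups, was looked at after the values were known, and was not tested.

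Wapl, which opens the ring and releases cohesin from DNA (chromosome 14, 34673928 to 34747983, plus strand), was at 164, 154 and 130 CPM in the control libraries and at 135, 139 and 153 CPM in those labelled iKO. The values overlapped widely and no change was called (-0.069 ± 0.11, adjusted p = 0.722). Its sign turned to 0.065 with library totals, a scaling that moved the median of all genes by 0.13. Pds5b, a scaffold to which both Wapl and sororin bind (chromosome 5, 150673739 to 150810690, plus strand), was at 62.3, 55.6 and 64.6 CPM in the control libraries and at 36.8, 30.6 and 45.1 CPM in those labelled iKO. It fell by 1.62 times with no overlap (-0.70 ± 0.16, adjusted p = 0.0196). The call ended without control 1 or 3 or iKO-labelled library 1 or 2 (adjusted p up to 0.0673).

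The paralog Pds5a was at 109 ± 10.3 CPM in the control libraries and 101 ± 10.7 CPM in those labelled iKO and was not called (-0.11 ± 0.12, adjusted p = 0.559). Per length, Pds5b made up 51.2%, 49.0% and 56.6% of the pair in controls 1 to 3 and 42.1%, 39.8% and 44.1% in the iKO-labelled libraries. Every control share was above every iKO-labelled share, a difference that was not tested. The size of the shares depends on the lengths behind the FPKM, since in CPM Pds5b was below Pds5a in every library.

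**Figure D2:**
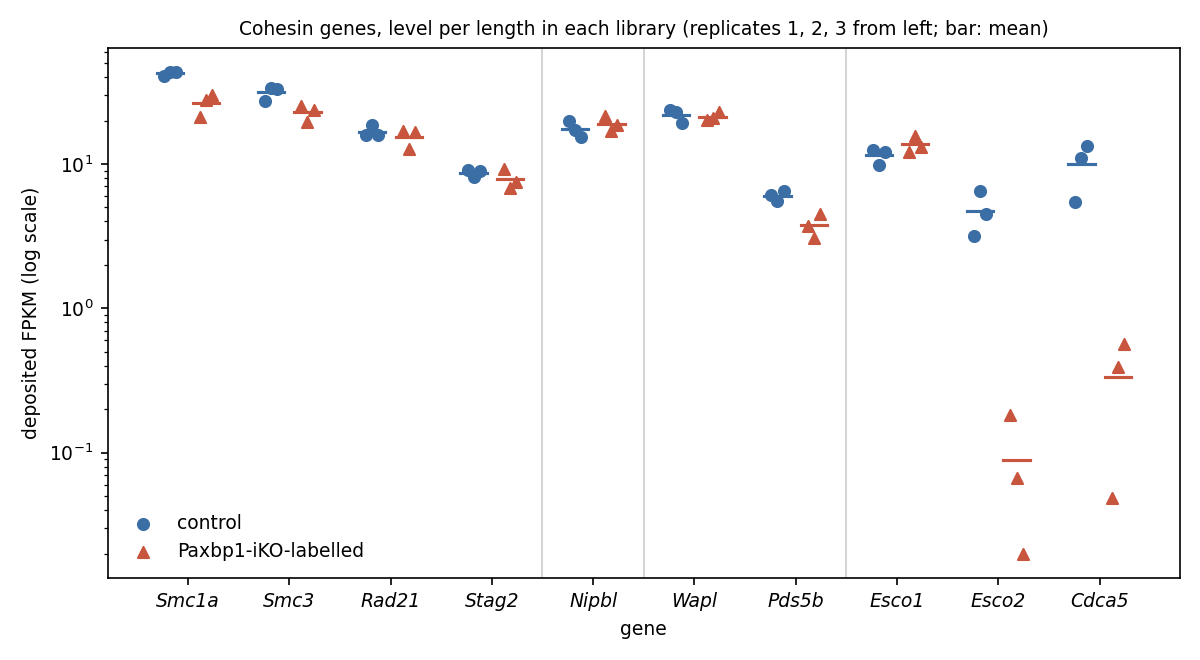
Deposited FPKM (vertical log axis) of the 10 cohesin genes in each library, with circles for the 3 controls, triangles for the 3 iKO-labelled libraries and a bar at each mean. Esco2 and Cdca5 stand at 4.73 and 9.94 FPKM on average in the controls and at 0.0895 and 0.336 FPKM in the iKO-labelled libraries, while the other 8 genes stay between 3.07 and 43.5 FPKM in every library.

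Per length, the order of the mean levels in the controls was Smc1a (42.5 ± 1.42 FPKM), Smc3 (31.3 ± 3.5), Wapl (22.0 ± 2.43), Nipbl (17.5 ± 2.29), Rad21 (16.8 ± 1.69), Esco1 (11.5 ± 1.46), Cdca5 (9.94 ± 4.02), Stag2 (8.74 ± 0.477), Pds5b (6.03 ± 0.464) and Esco2 (4.73 ± 1.69). Between neighbours in this order the libraries overlapped for Wapl and Nipbl, Nipbl and Rad21, Esco1 and Cdca5, Cdca5 and Stag2, and Pds5b and Esco2. In the iKO-labelled libraries the first 6 kept this order, from Smc1a at 26.4 ± 4.61 FPKM to Esco1 at 13.7 ± 1.87 FPKM. Stag2 (7.87 ± 1.24 FPKM) and Pds5b (3.76 ± 0.726 FPKM) followed. Cdca5 (0.336 ± 0.262 FPKM) and Esco2 (0.0895 ± 0.083 FPKM) came last. Here the libraries of Smc1a and Smc3, Smc3 and Wapl, Wapl and Nipbl, Rad21 and Esco1, and Cdca5 and Esco2 overlapped.

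Of 5 further cohesin genes outside S phase, Stag1, Pds5a, Mau2, Hdac8 and Ctcf, 0 were called, with a median log2 fold change of -0.046. Of all tested genes 20.4% were called, and 5 genes are too few to set this count against that share. Hdac8, the deacetylase that recycles Smc3, was at 2.73 ± 1.02 and 3.68 ± 0.539 CPM in the control and iKO-labelled groups (adjusted p = 0.532). Ctcf, the DNA-binding protein at which loop extrusion halts, was at 40.5 ± 8.02 and 29.7 ± 6.57 CPM (-0.45 ± 0.21, adjusted p = 0.187). Of the 4 meiotic subunits, Smc1b and Rad21l were at the edge of detection. Smc1b had 1, 0 and 0 counts in the control libraries and 16, 6 and 1 in those labelled iKO, and Rad21l had 6 counts in iKO-labelled library 3 and 0 elsewhere. Neither passed the count filter. Rec8 had 30 to 42 counts in the control libraries and 12 to 36 in the iKO-labelled libraries and was not called (adjusted p = 0.6). Stag3 had 86, 1 and 1 counts in the control libraries and 117, 162 and 38 in those labelled iKO (1.52 ± 1.41, adjusted p = 0.519). Without control 1, Stag3 was called at 6.43 (adjusted p = 0.00614).

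Most cohesion factors of the replication fork fell with Esco2 and Cdca5. Of 8 tested, 7 fell and 0 rose, against 12.3% and 8.15% of all tested genes, and their median was -1.38 on the log2 scale. This list was chosen with earlier results of these data known, so its count adds no independent support. Dscc1 and Chtf18, subunits of the clamp loader that promotes Smc3 acetylation, fell the most. Dscc1 was at 7.65, 8.12 and 12.4 CPM in the control libraries and at 0.701, 0.545 and 0.162 CPM in those labelled iKO (-4.29 ± 0.55, adjusted p = 0.00149). With 20, 16 and 4 counts in the iKO-labelled libraries, its log2 value was -1.46 on log2(FPKM + 1). Chtf18 was at 23.1, 32.5 and 29.0 CPM in the control libraries and at 3.58, 3.34 and 3.89 CPM in those labelled iKO (-2.97 ± 0.21, adjusted p = 1.5e-04). The groups did not overlap for either gene. Chtf8, the third specific subunit of that loader, went from 94.6 ± 8.18 to 73.6 ± 3.1 CPM, a call (-0.36 ± 0.11, adjusted p = 0.0453) that ended under 12 of 17 alternatives, among them each library but control 2 left out.

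Timeless and Tipin, the fork protection pair, fell, with log2 fold changes of -2.21 ± 0.17 (adjusted p = 1.7e-04) and -1.02 ± 0.16 (adjusted p = 0.00339). Wdhd1, the fork hub that ties helicase to polymerase, fell from 27.0 ± 3.4 to 8.08 ± 2.32 CPM (-1.74 ± 0.25, adjusted p = 0.00272). Pcna, the sliding clamp to which Esco2 binds, fell from 320.2 ± 32.9 to 166 ± 1.15 CPM (-0.95 ± 0.089, adjusted p = 4.5e-04). Ddx11, a helicase of cohesion, was at 6.35, 10.1 and 16.1 CPM in the control libraries and 11.2, 5.45 and 3.08 CPM in those labelled iKO, which overlapped, and was not called (adjusted p = 0.39).

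Among the genes that guard the centromere and separate the sisters, 5 of the 8 tested genes fell and 1 rose. This compares with 12.3% and 8.15% of all tested genes, and the median log2 fold change of the 8 was -2.60. These genes, too, were listed with earlier results of these data known. Sgo1 and Sgo2a, the shugoshins that protect centromeric cohesin, went from 13.7 ± 3.97 to 2.13 ± 0.448 CPM (-2.68 ± 0.34, adjusted p = 0.00138) and from 14.4 ± 2.1 to 2.51 ± 0.155 CPM (-2.52 ± 0.25, adjusted p = 5.1e-04). Bub1, a kinase of the kinetochore, and Aurkb, a kinase of the inner centromere, fell, with log2 fold changes of -8.23 ± 0.69 and -6.85 ± 0.62. In iKO-labelled libraries 1 to 3 there were 0, 4 and 2 counts of Bub1 and 12, 12 and 0 counts of Aurkb. Both sizes rest on these few counts. For Bub1 the value was -9.09 without iKO-labelled library 2 and -2.53 on log2(FPKM + 1). For Aurkb it ran from -7.62 to -3.45 over the 17 alternatives. Haspin, the histone kinase that places Aurkb at the centromere, was at 2.32, 2.32 and 2.61 CPM in the control libraries and at 0, 1.12 and 0.568 CPM in those labelled iKO. Its groups did not overlap, but it was not called (-2.09 ± 1.12, adjusted p = 0.249), and its value was -3.09 without iKO-labelled library 2 and -1.51 without library 1. Plk1, the kinase that helps remove arm cohesin in prophase, overlapped between the groups and was not called either (adjusted p = 0.336).

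The pair that triggers sister separation moved apart. Espl1 encodes separase, the protease that cuts Rad21, and was at 10.6, 17.2 and 17.2 CPM in the controls. In the iKO-labelled libraries it was at 4.84, 0.307 and 0.73 CPM, all below the controls but with library 1 well above the others. Its fall (-2.93 ± 0.86, adjusted p = 0.0467) was -4.87 without iKO-labelled library 1, where it was still called (adjusted p = 0.00235). The call ended without any of the controls or iKO-labelled library 2 or 3 (adjusted p up to 0.146). Pttg1 encodes securin, which holds separase inactive until anaphase, and was at 13.7, 26.8 and 19.3 CPM in the controls. It was at 57.1, 63.3 and 60.3 CPM in the iKO-labelled libraries, each above every control, a rise of 3.01 times (1.59 ± 0.23, adjusted p = 0.00276) that was called under all 17 alternatives. Pttg1 was the only gene called higher among the 10 cohesin members and the 23 tested genes of these 4 further lists. Of all tested genes 8.15% were called higher.

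**Figure D3:**
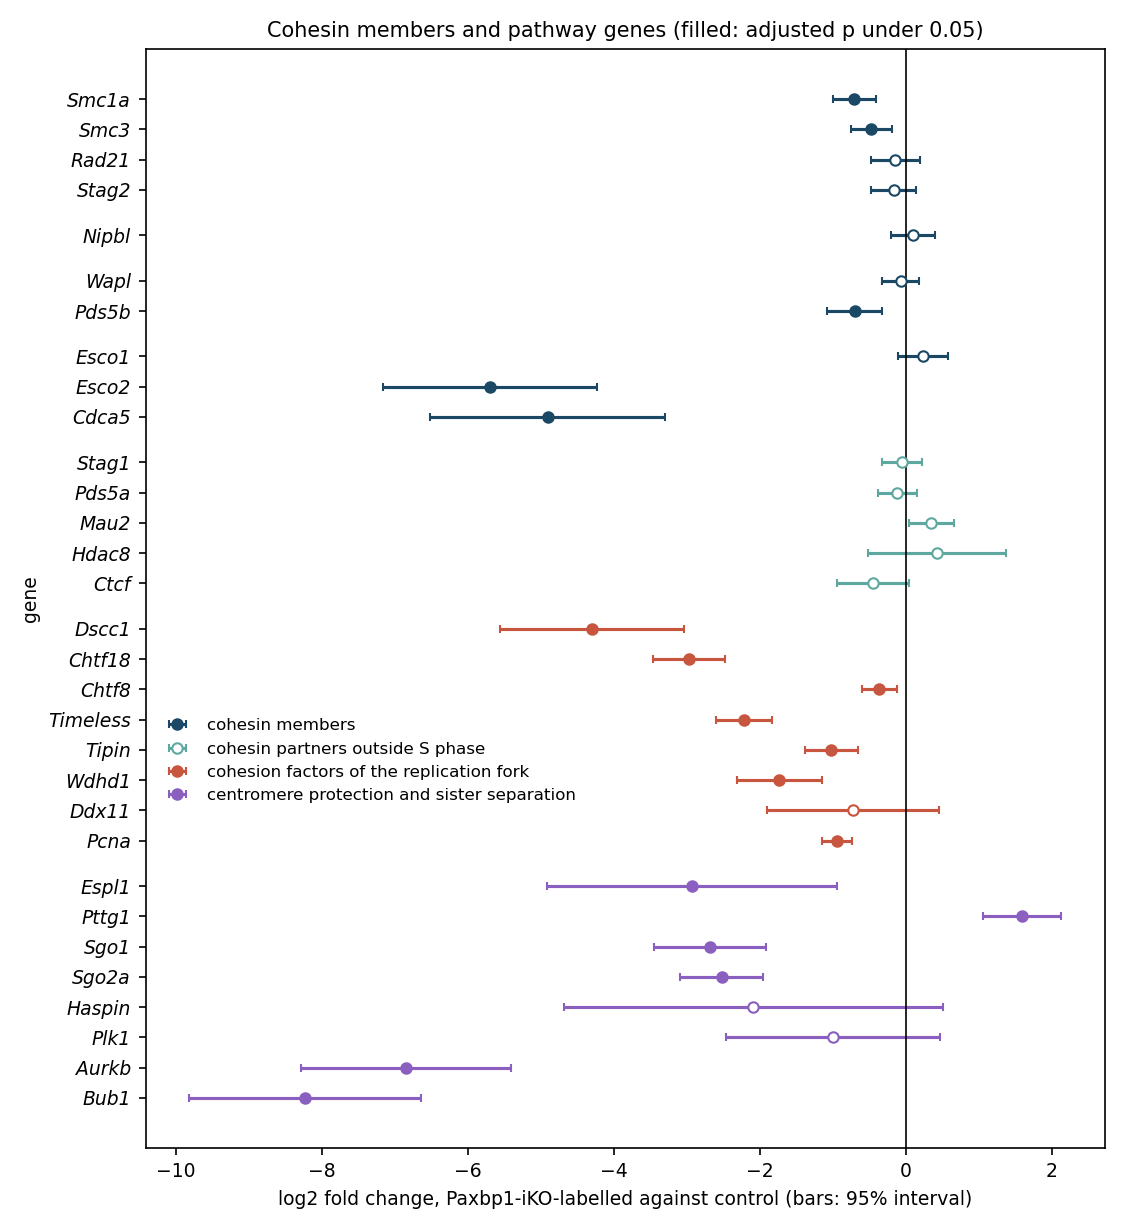
Log2 fold change of each cohesin member and of the tested genes of 3 related lists (horizontal axis, iKO-labelled against control, bars are 95% intervals), filled where the adjusted p was under 0.05. Esco2 (-5.70) and Cdca5 (-4.91) lie far to the left of the core ring (-0.70 to -0.14), and Pttg1 (1.59) is the only filled point to the right of 0.

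Cohesin is 1 of 3 complexes built on paired SMC proteins. The condensin complexes compact chromosomes for mitosis. They had 8 of 8 subunits lower, against 12.3% of all tested genes, with a median log2 fold change of -2.32 and a range from -4.65 to -0.59. Their members with the smallest p were Ncapg2 (-2.59 ± 0.22, adjusted p = 2.5e-04), Ncaph (-3.13 ± 0.29, adjusted p = 4.1e-04) and the ATPase Smc2 (-2.17 ± 0.29, adjusted p = 0.00181). The Smc5/6 complex acts in DNA repair. It had 2 of 6 subunits lower, against 12.3% of all tested genes, 0 higher and a median of -0.22. Of these, Nsmce4a fell (log2 fold change -1.52 ± 0.26, adjusted p = 0.00553), and the call of Nsmce1 (-0.60 ± 0.18, adjusted p = 0.0484) ended under 9 of 17 alternatives. The ATPase Smc6 was at 125 ± 13.1 and 149 ± 11.8 CPM and was not called (adjusted p = 0.154), but was with library totals (adjusted p = 0.0435). The other condensin ATPase, Smc4, fell by less than Smc2 (-0.995 ± 0.21, adjusted p = 0.0142), and its 95% interval of -1.49 to -0.50 overlapped that of Smc1a (-0.995 to -0.41). The difference between the complexes was not tested, and the condensin and Smc5/6 lists were chosen with earlier results of these data known.

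**Figure D4:**
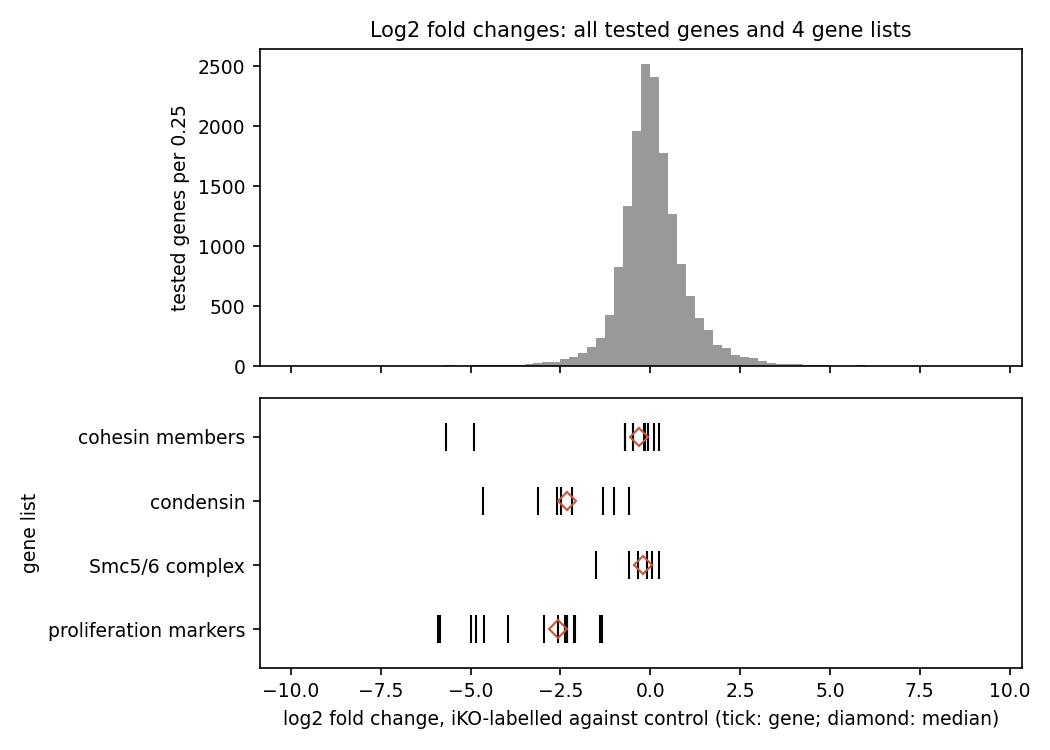
Histogram of the log2 fold changes of all 16252 tested genes (upper panel, genes per bin) above ticks for each gene of the cohesin, condensin, Smc5/6 and proliferation lists (lower panel, diamond at the median). The cohesin genes divide into 8 between -0.70 and 0.24 and a pair below -4.9, while the condensin and proliferation medians are -2.32 and -2.56.

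Genes of dividing cells moved with Esco2 and Cdca5. Of 15 proliferation markers, 14 fell and 0 rose, against 12.3% and 8.15% of all tested genes. Their summed level was 2441 to 3113 CPM in the controls and 475 to 619 CPM in the iKO-labelled libraries, with no marker at 0. Mki67, the Ki-67 antigen, fell from 38.2 ± 6.11 to 1.32 ± 0.385 CPM (-4.85 ± 0.27). The log2 fold changes were -2.31 ± 0.083 for Mcm4, of the replicative helicase, -5.90 ± 0.27 for Pclaf, a partner of Pcna, and -2.97 ± 0.14 for Rrm2, of ribonucleotide reductase (adjusted p at most 4.0e-05). The markers were chosen with earlier results of these data known, so their count adds no independent support. The part of the number of dividing cells in the fall of Esco2 and Cdca5 was not tested.

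Patterns over the 6 libraries were compared by the root mean square distance of log2 CPM, each gene centred on its own mean and predicted gene models left out. The genes nearest to Esco2 were Pbk (distance 0.59), Mns1 (0.72) and E2f7 (0.75). Those nearest to Cdca5 were Nsl1 (0.45), Kif4 (0.47) and Lrr1 (0.50), of which Nsl1 lost its call without control 2 or 3 or iKO-labelled library 2 (adjusted p up to 0.0788). No gene was among the 3 nearest to both. The nearest to Smc3 were Cln8 (0.033), Tspan5 (0.034) and Fkbp2 (0.052), and to Stag2 Slc25a39 (0.039), Cldn12 (0.042) and Trnt1 (0.043). These distances rest on 6 libraries in 2 groups and are given as a description.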

How the data were processed

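RNA was reverse transcribed by Smart-Seq2, per the labels' protocols, which does not mark strand. DESeq2, STAR, Trim Galore, Subread, featureCounts and mm10 are named, without roles, per the submitters' processing notes. The annotation and the strand and multimapping settings: not given in the sources used here. The authors deposited raw read counts and FPKM; the latter matched median-of-ratios library scaling to within 9.3e-15 over 11939 genes whose lowest count was at least 20. Of 46078 rows, 551 had no gene name and held 0.108% to 0.123% of counts; they were left out.

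The counts were fitted by edgeR 4.0.16 under R 4.3.3 (filterByExpr, minimum count 10, minimum total 15, TMM, group as the only term). The standard error is the log2 fold change over the square root of F. Alternatives were RLE, upper-quartile and total scaling, DESeq2 1.42.0, limma-voom (limma 3.58.1), other filters, limma on log2 FPKM, the replicate number as a block and each library left out. The fit was also run on counts simulated from its own means and dispersions. Such a run checks the code and not how well the model suits these data. Positions came from GENCODE M21, and promoter windows from RefSeq, which held 5 of the 10 members. The members, lists and rule for named genes were chosen with earlier results of these data known. The rule takes Paxbp1, the members, the detected genes of 4 cohesin lists, 3 condensin, Smc5/6 and proliferation genes each by smallest p, Mki67, and the 3 nearest genes to Esco2, Cdca5, Smc3 and Stag2. Marker lists are given as counts and sums, and Acta1 and the satellite cell markers were named after their calls were seen.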

Additional observations from a re-analysis of the deposited data

How the results depend on the processing

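Of the 170 values of the 10 cohesin genes under alternatives, 154 kept both direction and side of the threshold. Smc1a, Esco2 and Cdca5 were called in all 17 alternatives. The number of cohesin genes called was 5 and became 3 on log2(FPKM + 1) without a filter, and 3 to 4 with 1 library left out. Leaving out a library gave 706 to 1159 genes called higher and 1347 to 1657 called lower, against 1324 and 1991. DESeq2 called 2100 genes higher. Library totals gave 1921 higher and 1440 lower, so that 57.2% of calls were higher against 39.9%. Of values that were never called, Wapl turned to 0.0090 with upper-quartile factors, 0.065 with library totals, 0.0012 with at least 5 CPM in 3 libraries and 0.0019 without control 1 (-0.15 to 0.0019 over the left-out libraries). Stag1 turned to 0.032, 0.086 and 0.022 under the same 3 settings and to 0.022 and 0.028 without control 3 or iKO-labelled library 3 (-0.14 to 0.028 over the left-out libraries), and Pds5a to 0.019 with library totals. The cause was not tested. The log2 ratio differences with 1 library left out were -7.29 to -5.63 for Esco2 to Esco1, -6.42 to -4.87 for Esco2 to Smc3 and -5.58 to -3.77 for Cdca5 to Smc3.

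The series' design speaks of pairs of mice, but no label ties the replicate numbers to them. Deviations from group means of same-numbered libraries correlated at -0.067, -0.0021 and -0.059, and 0 of 3 controls correlated best with its own number. With 3 libraries per group, these correlations cannot decide whether same-numbered libraries were paired. With the replicate number as a block 813 genes were called higher and 4 cohesin genes, Smc3 missing the threshold (adjusted p = 0.0774). Depth limits Esco2 and Cdca5 in the iKO-labelled libraries, where they had 31 and 58 counts in all.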
